A study of Homo sapiens with 4 samples.

Results

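The genes described here encode the TIP60 histone acetyltransferase complex, the other main histone acetyltransferases, the deacetylases that reverse their work, and BET proteins that read the mark. They were chosen by name, as a list of 44 genes in 5 subgroups: 17 TIP60 subunits, 9 other acetyltransferases, 11 deacetylases, 5 sirtuins and 2 BET readers. All 44 were found on the array, out of 19775 genes with a named probe set, and all 44 passed the filter on dim signals, as did 12190 genes in all. They were read by 100 of the 54675 probe sets, between 1 and 5 per gene.

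The cells were MIA PaCa-2, an established line from a human pancreatic carcinoma. Both groups had been transduced with a lentivirus and selected as stable cells: the ING3 group received full-length ING3 with a FLAG tag from the pLenti CMV/TO Puro DEST vector, named for its CMV/TO promoter, and the control group received GFP. The labels speak of selected clones and do not say how many were pooled. Each group had 2 Affymetrix arrays, a and b, which the design text calls technical duplicates. The number of independent cultures per group is not given. Every p-value below therefore sets a difference between the groups against the spread between arrays, not between cultures.

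Acetylation of histone lysines loosens chromatin and is read by bromodomain and YEATS domain proteins. TIP60, the human NuA4 complex, joins an acetyltransferase (KAT5), which modifies histones H4 and H2A, to an ATPase (EP400) that places the variant histone H2A.Z, and serves transcription and the repair of DNA breaks. ING3, the gene that was overexpressed, is a subunit of this complex whose PHD finger binds methylated histone H3.

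The values are MAS5 signals, a linear brightness per probe set scaled to a common level on each array. Every gene is given by its brightest probe set, the one with the highest mean of log2(signal + 1), unless another is named. Signals of different probe sets depend on their oligonucleotides and are not set against each other as amounts of transcript. Differences are ING3 minus control on the log2(signal + 1) scale, written as difference ± moderated standard error (SE) from limma with 2 arrays per group, and called means an adjusted p under 0.05 (Benjamini-Hochberg, over all tested genes). The number of arrays limits the precision, and a permutation of 2 arrays against 2 could not give a two-sided p below 0.333.

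The brightest probe set of ING3 gave 338 and 373 on control arrays a and b, then 521 and 541 on ING3 arrays a and b. Both ING3 arrays lay above both control arrays, by 1.49-fold (log2 difference 0.58, limma adjusted p = 0.071). With the mean over its probe sets in place of the brightest, the log2 difference was 0.23. The other ING3 probe sets past the filter had log2 differences of -0.19, with both ING3 arrays below both control arrays, and 0.018, overlapping. The dimmest, under the filter, gave 27.1 and 25.1 in control and 57.6 and 23.9 in ING3 cells. So no gain of ING3 transcript was called, and whether these probe sets detect the transgene was not tested. The line's keratins KRT8, KRT18 and KRT19 and the intermediate filament VIM were bright, whereas the epithelial adhesion genes EPCAM and CDH1 and all 5 measured acinar and endocrine markers were under the filter. KRT8 and KRT19 rose in the ING3 cells (log2 difference 0.32 and 0.52, limma adjusted p = 0.033 and 0.0078), and KRT18 was at 0.13, not called. KRT7, EPCAM and CDH1 were lower on average, at -0.16, -0.61 and -0.34, with overlapping groups. The summed signal of the 6 epithelial markers, mostly KRT18 and KRT8, was 40035 to 40165 (control) and 45170.3 to 48251 (ING3). That of 4 mesenchymal markers, mostly VIM, overlapped, at 29241 to 31191 (control) and 28295 to 31033 (ING3). Among these, VIM was at -0.065, overlapping, and ZEB1 at 0.21, with both ING3 arrays above control, neither called. CDH2 and FN1, both under the filter, were also higher on both ING3 arrays, at 1.74 and 1.34. The summed signal of 9 leukocyte, endothelial and fibroblast markers, mostly COL3A1, was 1884 to 2150 (control) and 1884 to 1936 (ING3). Of these COL1A1 was lower on both ING3 arrays (-0.45, not called). PTPRC and LUM, under the filter, were higher on both (0.38 and 2.43), and the others overlapped. The ratio of 3' to 5' ACTB signal, which rises as RNA degrades, was 1.80 to 2.58 (control) and 2.03 to 2.05 (ING3). The part of these markers and of RNA quality in the results below was not tested, and less of a transcript per cell cannot be told apart from fewer cells that carry it.

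No gene of the 44 was called in either direction. By limma 0 rose and 0 fell, against 1.50% of all tested genes (1.03% higher and 0.476% lower). At an unadjusted p under 0.05 there were 2 members, EP400 and HDAC3, which is 4.55% of the members against 17.7% of all tested genes, and the lowest adjusted p among the members was 0.22. The groups did not overlap for 20 of 44 members (45.5%), against 49.2% of all tested genes. The ING3 mean was the higher one for 23 members and the lower one for 21. Their median log2 difference was 0.025 (all tested genes, -0.0074), and the median size without sign was 0.096 (all tested genes, 0.13).

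The intervals bound how large an unseen change could be on the brightest probe sets only, against the spread between arrays. Other probe sets of the same genes could lie outside them, as did MORF4L2 243857_at (-1.67 to -0.92) and HDAC9 230968_at (-0.97 to -0.32). The 95% interval of the log2 difference lay inside 1.5-fold in both directions for 41 of 44 members (93.2%), against 67.6% of all tested genes, and inside 2-fold for 43. The dim members HDAC7, HDAC10 and HDAC11 were the exceptions to the first, and 1 of them, HDAC7, to the second. The members were brighter than the tested genes as a whole (median log2 signal 10.5 against 9.63) and the part of brightness in these shares was not tested. For 30 of 44 members the difference between groups was smaller than the wider of the gaps between duplicates, as for 63.1% of all tested genes. The SD of the members' log2 gap was 0.16 between control duplicates and 0.17 between ING3 duplicates, and 0.18 to 0.22 between arrays of different groups.

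**Figure D1:**
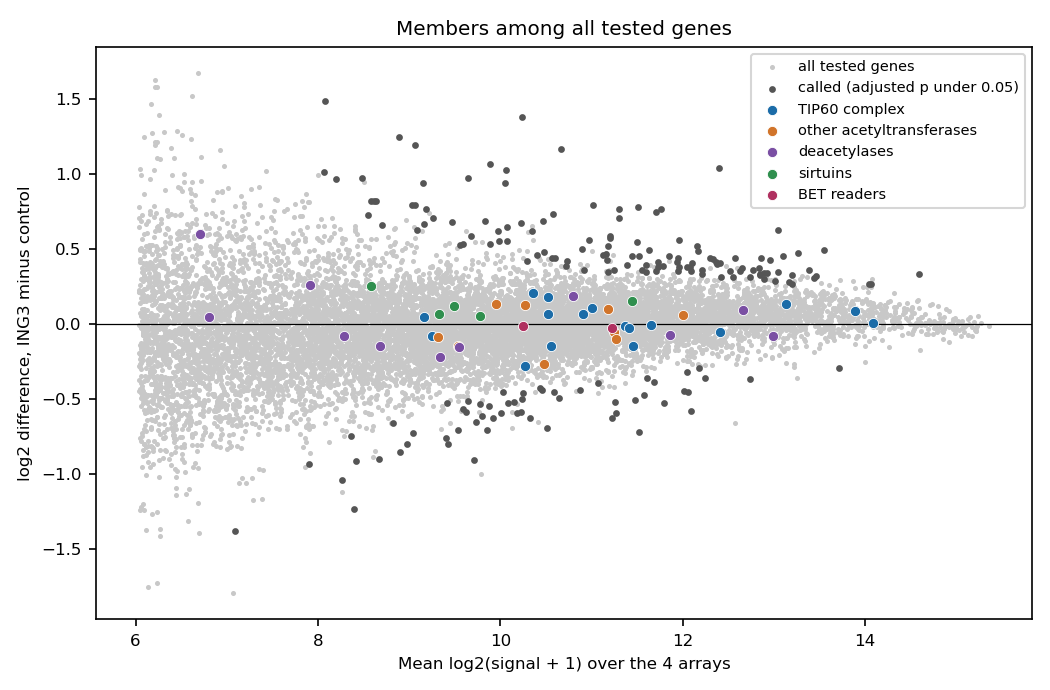
Each grey point is a tested gene, by its mean log2(signal + 1) over the 4 arrays (x) and its log2 difference, ING3 minus control (y); dark points are called genes and coloured points are the 44 members by subgroup. The members lie within the grey band at every brightness, none of them is a called gene, and the one farthest from 0 is HDAC7 at 0.60, at the dim end where the band is widest.

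Among the TIP60 subunits the enzyme, its scaffold and the exchange ATPase showed no called change. KAT5, the acetyltransferase, gave 665 and 587 on control arrays a and b, then 649.9 and 536 on ING3 arrays a and b. The b array was the lower one in both groups, and the ranges overlapped (log2 difference -0.081 ± 0.13, 95% interval -0.38 to 0.22). Its other probe sets gave 624 and 595 in control and 627 and 566 in ING3 cells, and 672 and 510.3 in control and 667 and 498 in ING3 cells, again with array b lower in both groups. All 3 are of the _x_at kind, which can bind related transcripts. TRRAP, the large pseudokinase that holds the complex together and recruits it to activators, gave 2449 and 2890.2 on control arrays a and b, then 2630.2 and 2631 on ING3 arrays a and b. Both ING3 values lay between the control values (log2 difference -0.016 ± 0.085); a second, dimmer probe set gave 216 and 227 in control and 263 and 268 in ING3 cells, with both ING3 arrays above control (log2 difference 0.26 ± 0.17, not called).

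EP400, the ATPase that exchanges H2A.Z into nucleosomes, had the lowest p of all 44 members. Its signals were 1443 and 1284 on control arrays a and b, then 1027 and 1219.8 on ING3 arrays a and b. Both ING3 arrays lay below both control arrays, with a log2 difference of -0.28 ± 0.11 and a 95% interval of -0.52 to -0.042, and the adjusted p was 0.22 by limma (unadjusted 0.026). With the mean over its probe sets the direction turned, to 0.13, and without ING3 array a the difference was -0.16. A second EP400 probe set past the filter gave 428 and 401 in control and 373 and 433 in ING3 cells, overlapping, with a log2 difference of -0.044 ± 0.14. The remaining EP400 probe sets, both under the filter, went opposite ways: 230628_at gave 13.0 and 13.9 in control and 84.4 and 65.9 in ING3 cells, and 230629_s_at gave 68.2 and 137 in control and 61.3 and 17.0 in ING3 cells. With all probe sets tested their log2 differences were 2.39 and -1.54, and their limma adjusted p was 0.27 and 0.48.

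The subunits that bridge KAT5 to the rest of the complex were EPC1 and EPC2, homologues of Enhancer of Polycomb. EPC2 gave 1123 and 1328 on control arrays a and b, then 1436 and 1389 on ING3 arrays a and b. Both ING3 arrays were the higher ones (log2 difference 0.21 ± 0.10, adjusted p = 0.30), while the control duplicates were themselves 0.24 apart. EPC1 gave 1969 and 2002 on control arrays a and b, then 2149 and 2118 on ING3 arrays a and b, without overlap and with close duplicates (log2 difference 0.10 ± 0.070). Its second probe set gave 1755 and 1682 in control and 2246 and 2007 in ING3 cells and a log2 difference of 0.31 ± 0.084, with a limma adjusted p of 0.17 over all probe sets; another went the other way at -0.42 ± 0.20 and the dimmest was higher at 0.48 ± 0.32. DMAP1, a partner of the DNA methyltransferase DNMT1, and BRD8, the bromodomain subunit, had overlapping groups and log2 differences of 0.046 ± 0.12 and -0.0066 ± 0.070. A dim second probe set of BRD8 was lower in the ING3 cells, with 125 and 105 in control and 65.6 and 68.6 in ING3 cells (log2 difference -0.77 ± 0.30, adjusted p = 0.28).

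RUVBL1 and RUVBL2, AAA+ ATPases that form a joint ring and also serve other remodelling complexes, went opposite ways without being called. RUVBL1 gave 3159 and 2757 on control arrays a and b, then 2790.1 and 2556 on ING3 arrays a and b. The groups overlapped, since ING3 array a lay above control array b (log2 difference -0.14 ± 0.084, 95% interval -0.33 to 0.045). RUVBL2 gave 8679.9 and 8507 on control arrays a and b, then 8998 and 9884 on ING3 arrays a and b, without overlap (log2 difference 0.13 ± 0.063, 95% interval -0.0065 to 0.27, adjusted p = 0.30). Its second bright probe set gave 4910.1 and 5170.2 in control and 5167 and 5419 in ING3 cells, overlapping, with 0.071 ± 0.064, and the dim remaining one was at -0.41, overlapping too. With the mean over its probe sets RUVBL2 turned to -0.068. ACTL6A, an actin-related protein shared with the BAF remodellers, gave 5363 and 5677 in control and 5986 and 4725 in ING3 cells. The ING3 arrays were its highest and its lowest (log2 difference -0.053 ± 0.10).

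Of the histone-binding and small subunits YEATS4, which reads acetylated histone H3 through a YEATS domain, gave 1393 and 1362 on control arrays a and b, then 1679.8 and 1455 on ING3 arrays a and b. Both ING3 arrays were higher, ING3 array a by more (log2 difference 0.18 ± 0.091, adjusted p = 0.33). VPS72, a chaperone of H2A.Z, gave 1586 and 1584 in control and 1496 and 1366 in ING3 cells. Its control duplicates were almost equal and both ING3 arrays were lower (log2 difference -0.15 ± 0.082, adjusted p = 0.38). MBTD1, a reader of methylated histone H4, MEAF6, a subunit shared with the MOZ and HBO1 enzymes, MRGBP, which binds the MRG proteins, and MORF4L1, the chromodomain protein MRG15, all had overlapping groups and log2 differences of 0.065 ± 0.089, -0.028 ± 0.071, 0.069 ± 0.11 and 0.085 ± 0.066. The 3 probe sets of MORF4L1 went the same way, at 0.085, 0.087 and 0.027. The other 2 MBTD1 probe sets were lower in the ING3 cells, at -0.47 and -0.40, with groups that overlapped.

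MORF4L2, which encodes MRGX, an MRG protein without the chromodomain of MORF4L1, held the single called probe set of the whole list. Probe set 243857_at gave 437 and 423 on control arrays a and b, then 165 and 185 on ING3 arrays a and b. Both ING3 arrays were below both control arrays and the duplicates were close. It fell by 1.29 on the log2 scale (SE 0.17, 95% interval -1.67 to -0.92, limma adjusted p = 0.026 over the 27305 probe sets past the filter), which is 2.45-fold. Another probe set, 243683_at, gave 327 and 245 in control and 182 and 117 in ING3 cells with a log2 difference of -0.95 ± 0.26, without overlap, at an adjusted p of 0.17. The brightest MORF4L2 probe set, 201994_at, did not move with them: it gave 16925 and 17843 on control arrays a and b, then 17558 and 17310.0 on ING3 arrays a and b, a log2 difference of 0.0046 ± 0.055 with a 95% interval of -0.12 to 0.13. Which stretch of the transcript each probe set reads is not given in the sources used here, so whether the called one detects the same RNA as the brightest was not tested. The call rested on all 4 arrays: without any 1 of them the log2 difference was -1.37 to -1.21 and the limma adjusted p was 0.075 to 0.22. Without the intensity trend the adjusted p was 0.31, and with all probe sets tested and no filter it was 0.078.

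Over all probe sets of the list, 83 of 100 passed the filter. By limma 0 rose and 1 fell, which is 1.20% against 0.370% of all probe sets past the filter (0.103% for those that fell). At an unadjusted p under 0.05 there were 9 (10.8%, against 15.7%), and the groups did not overlap for 36 (43.4%, against 48.1%). Of the 39 probe sets past the filter that were not the brightest of their gene, 22 went the way of the brightest and 17 the other way, that is 56.4% the same way against 59.9% over all genes. For 9 of the 24 members with such a probe set, all of them went the same way.

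**Figure D2:**
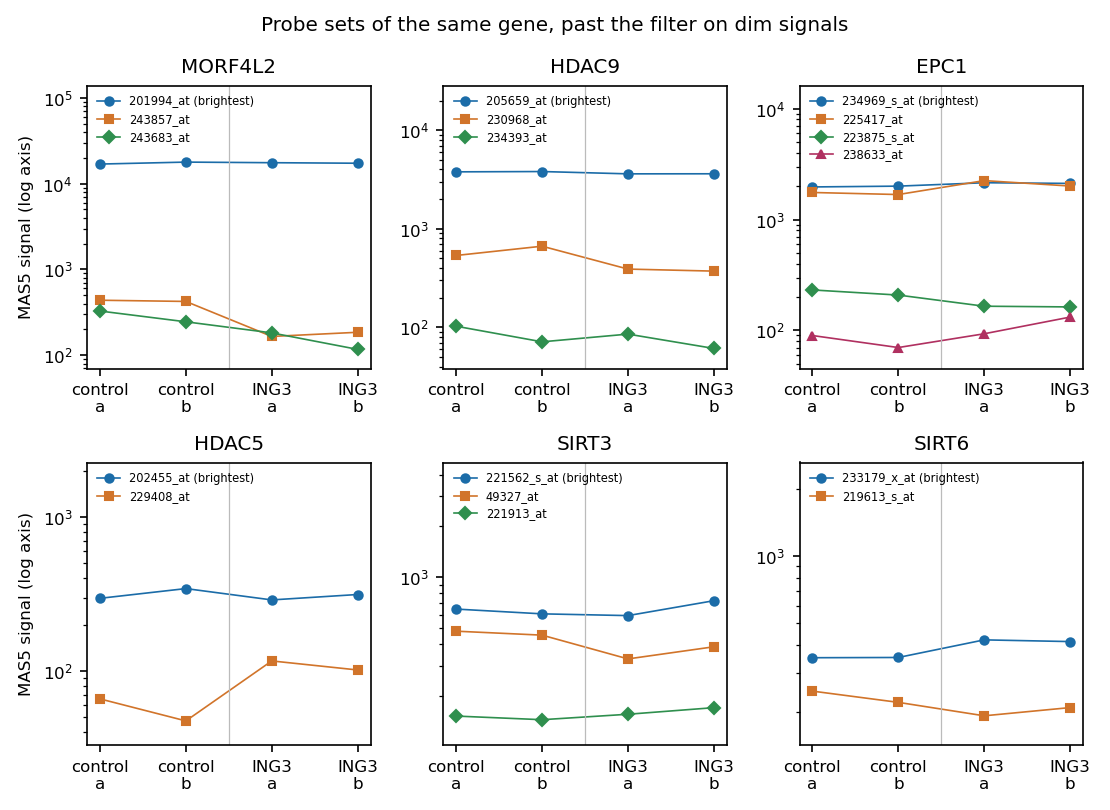
MAS5 signals (log axis) of the probe sets past the filter for 6 members, on control arrays a and b and ING3 arrays a and b; lines join the values of 1 probe set and carry no order in time. MORF4L2 stays level on 201994_at while 243857_at goes from 437 and 423 to 165 and 185; EPC1, HDAC5, SIRT3 and SIRT6 each hold a probe set of opposite sign to the brightest, and that of HDAC9 is lower by more.

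Of the other acetyltransferases 0 were called (1.50% of all tested genes) and 0 had an unadjusted p under 0.05 by limma (17.7% of all tested genes), with 4 higher and 5 lower means among 9 and a median log2 difference of -0.053. EP300, the coactivator p300, gave 1371 and 1775 on control arrays a and b, then 1432 and 1176 on ING3 arrays a and b. Control array b and ING3 array b were its extremes and the groups overlapped (log2 difference -0.27 ± 0.13, adjusted p = 0.34). Its second probe set gave 567 and 689 in control and 522 and 625 in ING3 cells, also overlapping. Its paralogue CREBBP gave 2366 and 2576 in control and 2376 and 2383 in ING3 cells (-0.053 ± 0.072). KAT2B, the SAGA and ATAC enzyme PCAF, gave 754 and 802 on control arrays a and b, then 742 and 666 on ING3 arrays a and b. Both ING3 arrays were below control (log2 difference -0.14 ± 0.11, adjusted p = 0.53). Its paralogue KAT2A, GCN5, gave 619.9 and 690.3 in control and 575 and 661 in ING3 cells, overlapping, with -0.086 ± 0.12.

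The MYST enzymes, relatives of KAT5, differed in sign. KAT8, which acetylates lysine 16 of histone H4 as MOF, gave 921 and 968 on control arrays a and b, then 1033 and 1033 on ING3 arrays a and b. The ING3 duplicates were almost equal and above control (log2 difference 0.13 ± 0.090, adjusted p = 0.49). KAT6A, the MOZ enzyme, gave 2177 and 2294 in control and 2421 and 2359 in ING3 cells, without overlap (log2 difference 0.10 ± 0.070), while its second bright probe set gave 1899.5 and 2119 in control and 2015 and 1987 in ING3 cells and overlapped (log2 difference -0.0040 ± 0.082). KAT7, the HBO1 enzyme, gave 1243 and 1124 in control and 1380.0 and 1204 in ING3 cells, and KAT6B, the MORF enzyme, gave 2474 and 2641 in control and 2298 and 2483 in ING3 cells. Both overlapped, at 0.12 ± 0.10 and -0.10 ± 0.074. HAT1, which acetylates newly made histone H4 before it enters chromatin, gave 4117 and 3914 in control and 4126 and 4236 in ING3 cells. Its ING3 arrays were the higher ones, by little (log2 difference 0.059 ± 0.063).

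**Figure D3:**
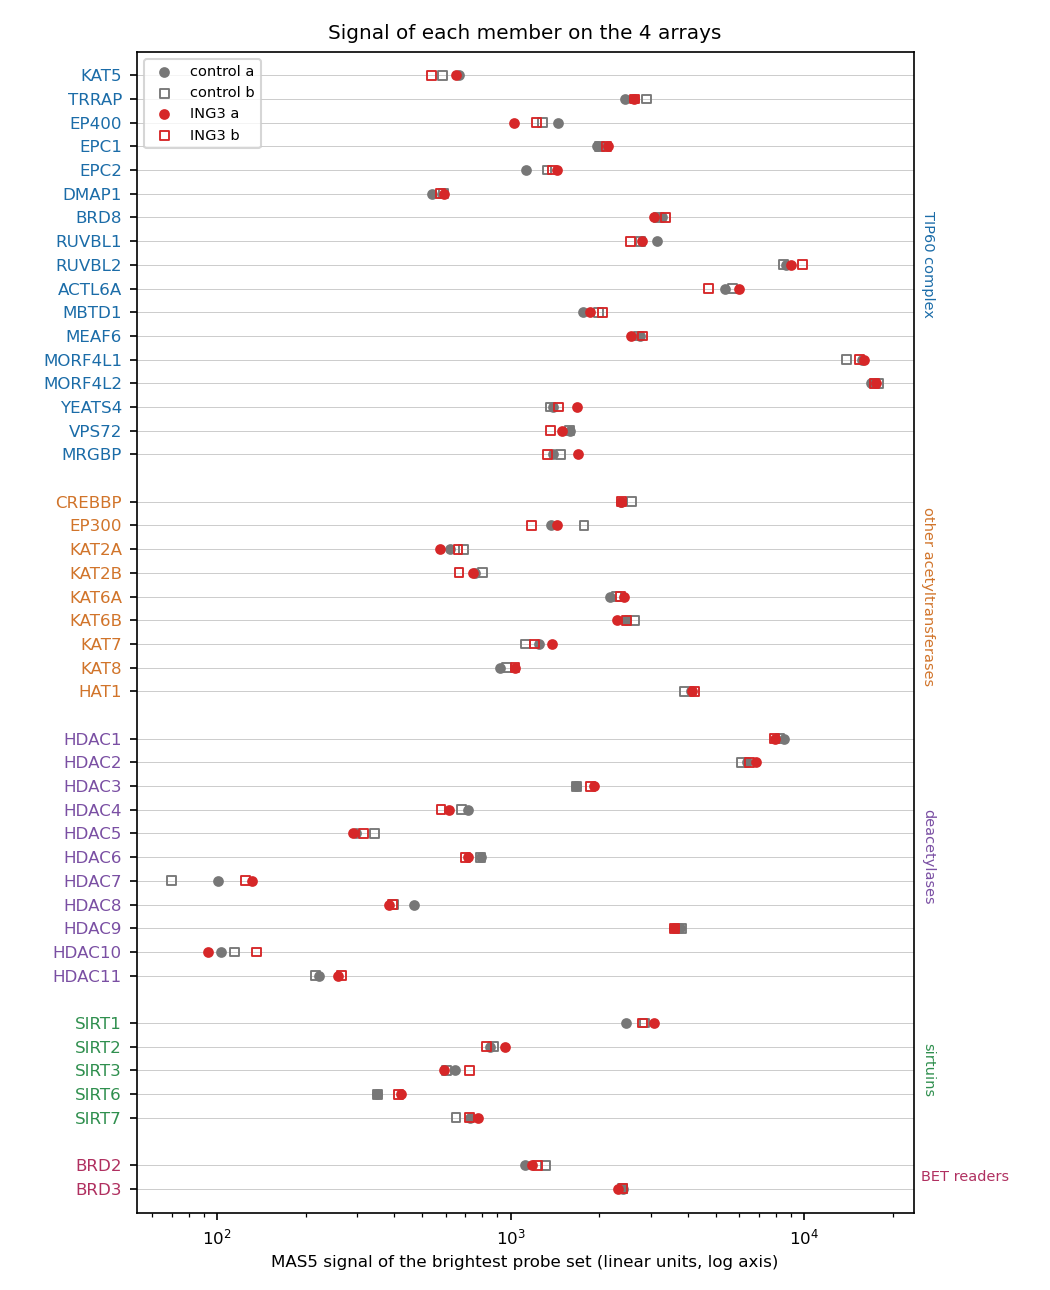
MAS5 signal (x, log axis) of the brightest probe set of each of the 44 members on each array; grey marks are control, red marks are ING3, filled circles are array a and open squares array b. The arrays of a gene mostly lie on top of each other, and the wider rows are the dim ones (HDAC7, HDAC10) and genes such as EP300 and ACTL6A whose duplicates differ.

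Of the zinc-dependent deacetylases 9 of 11 had groups that lay apart (81.8%, against 49.2% of all tested genes), 4 of them higher and 5 lower in the ING3 cells, and none was called. After quantile normalization and after cyclic loess it was 7 of 11 (63.6%). Of 11 members 8 differed by more than the wider of their duplicate gaps, against 36.9% of all tested genes, and 3 by less (27.3%, against 63.1%). HDAC3, the catalytic partner of the NCoR and SMRT corepressors, gave 1663 and 1676 on control arrays a and b, then 1927 and 1868 on ING3 arrays a and b. The duplicates were within 0.045 of each other and the ING3 arrays were 1.14-fold higher (log2 difference 0.18 ± 0.073, 95% interval 0.020 to 0.35, limma adjusted p = 0.24, unadjusted 0.032). HDAC3 was higher under all 13 alternative settings, by 0.16 to 0.21. It has 1 probe set, so the settings for probe set, intensity trend, filter and replicate block could not change its difference. HDAC2, a catalytic subunit of the Sin3, NuRD and CoREST complexes, gave 6382 and 6120.3 on control arrays a and b, then 6843 and 6517 on ING3 arrays a and b. Its paralogue HDAC1 gave 8502 and 8262 on control arrays a and b, then 7927 and 7913 on ING3 arrays a and b. HDAC2 was higher in the ING3 cells, at 0.10 ± 0.060, and HDAC1 lower, at -0.082 ± 0.055, both without overlap and with adjusted p of 0.44 and 0.48 by limma. A dim second probe set of HDAC2 had overlapping groups at -0.16 ± 0.27, and with the mean over both HDAC2 was at -0.031. After quantile normalization and cyclic loess the HDAC2 difference was 0.040 and 0.050. HDAC8, the deacetylase of the cohesin subunit SMC3, gave 468 and 398 in control and 384 and 396 in ING3 cells. Its other 2 probe sets were also lower, at -0.33 ± 0.16 and -0.15 ± 0.18, beside -0.15 ± 0.14 for the brightest.

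The class IIa deacetylases, which shuttle between nucleus and cytoplasm with MEF2 factors, did not move together. HDAC4 gave 716 and 678 on control arrays a and b, then 618 and 578 on ING3 arrays a and b. Both ING3 arrays were lower (log2 difference -0.22 ± 0.11, adjusted p = 0.33), and its second probe set past the filter was lower too, with 339 and 282 in control and 240.1 and 246 in ING3 cells (-0.35 ± 0.17). HDAC9 gave 3783 and 3810.1 in control and 3610.0 and 3616 in ING3 cells (-0.072 ± 0.061). Its second probe set, 230968_at, gave 536 and 666 in control and 390.1 and 372 in ING3 cells. On that probe set both ING3 arrays were lower (log2 difference -0.65 ± 0.14), with a 95% interval of -0.97 to -0.32 and an adjusted p of 0.11. HDAC7, dim, gave 101 and 70.0 in control and 131 and 125 in ING3 cells. It had the largest difference of the list at 0.60 ± 0.31, with control duplicates 0.52 apart and an adjusted p of 0.35.

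HDAC5 gave 297 and 343 in control and 289.5 and 314 in ING3 cells on its brightest probe set, overlapping, with -0.081 ± 0.16. Its second, 229408_at, gave 65.6 and 47.2 in control and 116 and 101 in ING3 cells, higher in the ING3 cells by 0.95 ± 0.34 at an adjusted p of 0.24. The sign of the brightest was not stable, being 0.014 after quantile normalization and 0.015 after cyclic loess. HDAC6, the cytoplasmic tubulin deacetylase, gave 792 and 787 on control arrays a and b, then 715 and 702 on ING3 arrays a and b. Its duplicates were close and both ING3 arrays were lower (log2 difference -0.16 ± 0.10, adjusted p = 0.45). HDAC11, the class IV enzyme, gave 222 and 216 in control and 258 and 266 in ING3 cells, without overlap (0.26 ± 0.18; its other probe set, overlapping, was at 0.87 ± 0.82). HDAC10, a polyamine deacetylase, gave 103 and 115 in control and 93.1 and 136 in ING3 cells, where the ING3 arrays were the extremes (0.049 ± 0.30). The median of the 11 deacetylases was -0.072, and 0.014 and 0.015 after quantile normalization and cyclic loess.

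The sirtuins, deacetylases that consume NAD+, were each higher on average with ING3 on their brightest probe sets, 5 of the 5 members against 48.3% of all tested genes, by a median of 0.12 on the log2 scale. The groups lay apart for 1 of them (49.2% of all tested genes) and 0 were called (1.50%). Of the sirtuins outside the members, both mitochondrial, SIRT5 was higher at 0.30 ± 0.092 and SIRT4 lower at -0.28 ± 0.18. SIRT4 gave 256 and 282 in control and 209 and 234 in ING3 cells, with the ING3 arrays below control, so the sign was not shared by the whole family. SIRT6, a chromatin-bound sirtuin, was the member whose groups lay apart, with 350.4 and 351 on control arrays a and b, then 421 and 414 on ING3 arrays a and b. The duplicates were nearly equal and the log2 difference was 0.25 ± 0.14 (95% interval -0.057 to 0.56, adjusted p = 0.37). This probe set is of the _x_at kind, and the other SIRT6 probe set went the other way without overlap, with 248 and 221 in control and 192 and 209 in ING3 cells (log2 difference -0.22 ± 0.19). SIRT1, the main nuclear sirtuin, gave 2468 and 2846 on control arrays a and b, then 3086 and 2812 on ING3 arrays a and b. ING3 array b lay below control array b, so the groups overlapped (log2 difference 0.15 ± 0.086).

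SIRT7, the nucleolar sirtuin, gave 726 and 651 on control arrays a and b, then 775 and 722 on ING3 arrays a and b, overlapping, with 0.12 ± 0.11. SIRT2, mainly cytoplasmic, gave 846 and 872 in control and 959 and 826 in ING3 cells, with 0.051 ± 0.11. SIRT3, the mitochondrial deacetylase, gave 646 and 606 on control arrays a and b, then 592 and 724 on ING3 arrays a and b, with 0.065 ± 0.13. Of its other probe sets 49327_at was lower without overlap, with 479 and 454 in control and 329 and 388 in ING3 cells (-0.38 ± 0.14, adjusted p = 0.27), and 221913_at was higher at 0.13 ± 0.22. The shared sign of the 5 members held on the brightest probe sets, also after quantile normalization and cyclic loess. With the mean over probe sets SIRT3 was at -0.061 and SIRT6 at 0.014. SIRT3 was at -0.081 without ING3 array b, and SIRT2 was at -0.056 without ING3 array a.

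The BET readers BRD2 and BRD3, double bromodomain proteins that bind acetylated histones and recruit the transcription machinery, had overlapping groups. BRD2 gave 1121 and 1316 on control arrays a and b, then 1180.0 and 1233 on ING3 arrays a and b. Both ING3 values lay between the control values (log2 difference -0.010 ± 0.10, 95% interval -0.23 to 0.21). Its second probe set gave 988 and 1051 in control and 1146 and 1204 in ING3 cells, with both ING3 arrays higher (log2 difference 0.20 ± 0.091, adjusted p = 0.32), and the dimmest gave 969.5 and 783 in control and 928 and 706 in ING3 cells, with array b lower in both groups. BRD3 gave 2410.1 and 2403 on control arrays a and b, then 2311 and 2409.7 on ING3 arrays a and b. The groups overlapped, at -0.028 ± 0.068, and its second bright probe set gave 1672 and 1815 in control and 1396 and 2265 in ING3 cells, where the ING3 duplicates were the extremes.

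**Figure D4:**
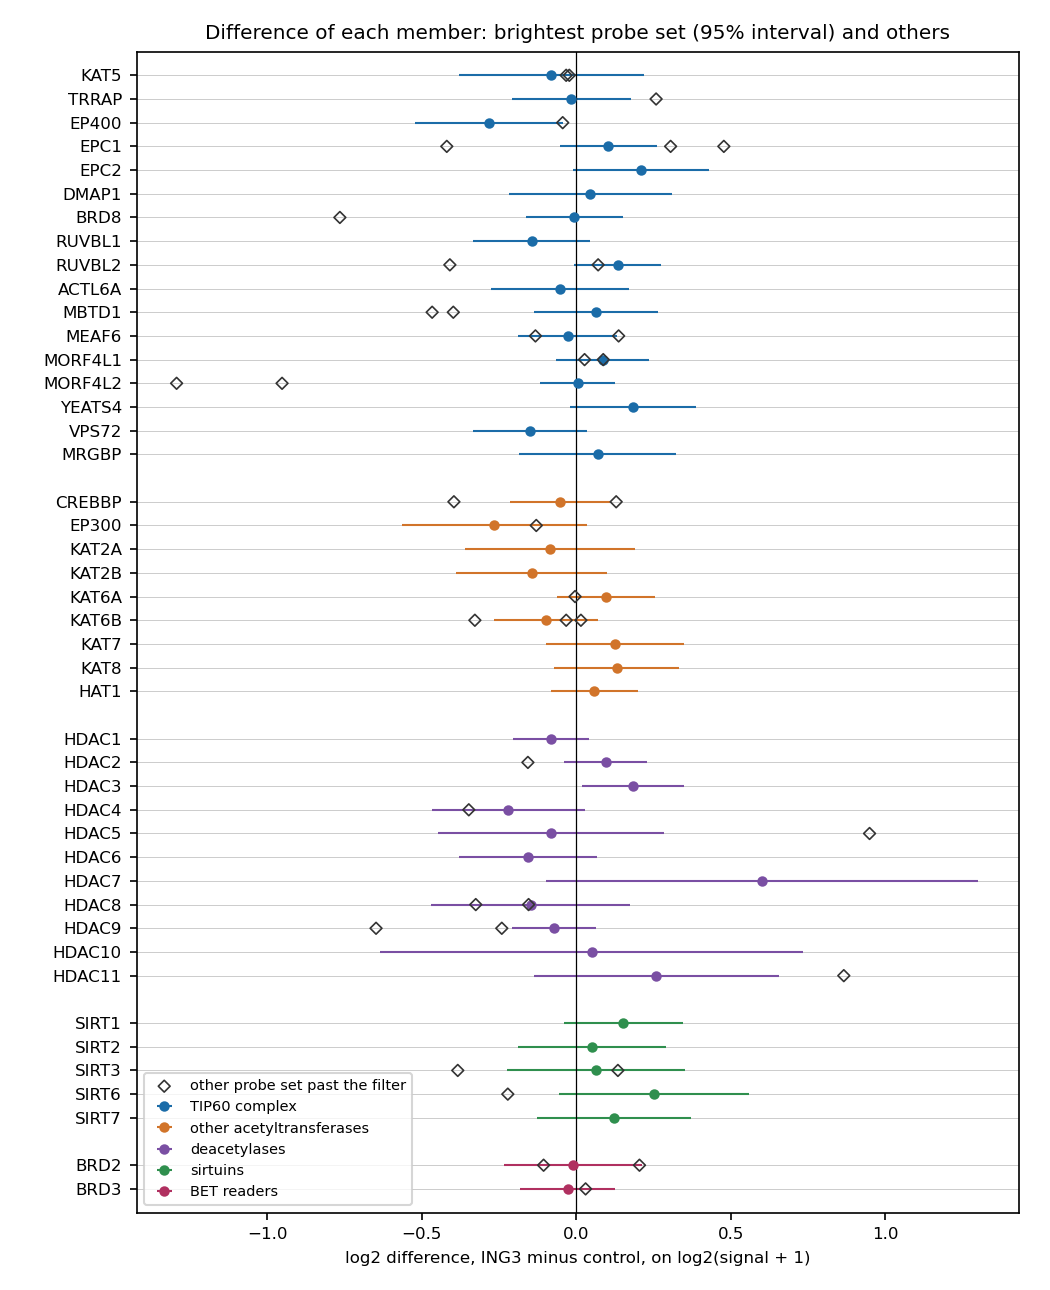
Log2 difference (x, ING3 minus control) of the 44 members; filled circles with bars are the brightest probe set and its 95% interval from limma, open diamonds are the other probe sets past the filter, with no interval drawn. Nearly all circles lie within 0.3 of 0, HDAC7 at 0.60 being the exception, while diamonds of MORF4L2 (-1.29 and -0.95) and HDAC5 (0.95) lie far from their circles.

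The partners of these enzymes were looked at in 9 further lists of 125 genes, of which 118 were tested. By limma 0 rose and 0 fell, and 15 had an unadjusted p under 0.05 (12.7%, against 17.7% of all tested genes). The median log2 difference was 0.014, with 65 higher and 53 lower means. Among 16 genes of H2A.Z exchange and the SRCAP and INO80 remodellers, INO80C, an INO80 subunit, had the lowest p, with 1633 and 1639.8 on control arrays a and b, then 1982 and 2349.6 on ING3 arrays a and b. Both ING3 arrays were higher (log2 difference 0.40 ± 0.091, adjusted p = 0.070). It was called without ING3 array a (0.52, adjusted p = 0.021), with adjusted p of 0.019 to 0.39 over its 13 alternatives. Among 9 partners of KAT8 in the MSL and NSL complexes OGT, the enzyme that adds N-acetylglucosamine to proteins, was lowest in p, with 9983 and 10893 in control and 8215 and 9147 in ING3 cells, lower on both ING3 arrays (log2 difference -0.27 ± 0.071, adjusted p = 0.099). It was called without ING3 array b (-0.34, adjusted p = 0.032), with 0.032 to 0.45 over its alternatives.

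In the remaining lists the gene with the lowest p was, for 21 tested SAGA and ATAC partners, SGF29, a reader of methylated histone H3, with a log2 difference of 0.48 ± 0.14. It was SIN3B, a scaffold of the Sin3 corepressor, for 24 partners of HDAC1 and HDAC2 (-0.54 ± 0.16), and BRD9, a bromodomain subunit of a BAF complex, for 23 further bromodomain proteins (0.30 ± 0.078). It was SIRT5, a mitochondrial desuccinylase, for 12 remaining acetyltransferases and sirtuins (0.30 ± 0.092), JADE1 for 8 partners of the MOZ, MORF and HBO1 enzymes (0.11 ± 0.076) and TBL1XR1 for 3 partners of HDAC3 (0.089 ± 0.061). The SIRT5 difference was 0.017 with the mean over its probe sets, with adjusted p of 0.12 to 0.98 over its 13 alternatives. The adjusted p of these 6 genes by limma, in the order named, were 0.13, 0.13, 0.092, 0.14, 0.49 and 0.49. The medians of these 8 lists lay between -0.066 and 0.049. The ninth list held the remaining TIP60 subunits, ING3 and ACTB, the actin of the complex, which had a log2 difference of 0.020 ± 0.053.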

How the data were processed

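Total RNA of 4 samples, 2 per group, was hybridised to 1-colour Affymetrix arrays. Per the submitters' processing notes, the authors made the deposited linear signal intensity values with Affymetrix Expression Console and MAS5, whose versions the sources used here do not give. MAS5 subtracts mismatch signals, so dim probe sets vary widely. The arrays had been scaled to one level (trimmed mean 500.1 each). Their median signals still differed, at 76.0 and 69.4 on control arrays a and b, and 66.9 and 64.8 on ING3 arrays a and b. The part of this in the differences was not tested.

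The 62 control probe sets were left out. The 41097 probe sets with 1 symbol in the platform annotation of 2016 were used, with a look-up in RefSeq's gene table (GRCh38.p14) that changed 0 symbols. Genes whose mean log2(signal + 1) was at least that of the median probe set (signal 64.6) were tested with limma 3.58.1 in R 4.3.3 (lmFit, eBayes with an intensity trend, no covariates, two-sided), and all probe sets likewise. Intervals had 9.35 degrees of freedom. The fit was also run on simulated data with independent errors, whose variances were drawn from the fit itself. This cannot show how the fit does on technical duplicates.

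The members and lists were chosen with earlier results of these data known. Values on all 4 arrays were given by rule for KAT5, TRRAP, EP400, RUVBL1, RUVBL2, the 4 members of lowest p per subgroup, and members with a probe set of opposite sign and a size of at least 0.5. Those of other members and probe sets, and of SIRT4, were added after they were seen.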

Additional observations from a re-analysis of the deposited data

How the results depend on the processing

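Across 13 alternatives, 4 of which left out 1 array, 23 of the 44 members kept the sign of their log2 difference in every alternative that tested them and 21 changed it at least once, 10 of them with the mean over probe sets. The settings of intensity trend, filter and replicate block could not change a sign. For the 15 members with 1 probe set, neither could those on the choice of probe set. The member calls stayed at 0 in both directions, with 1 exception: with the mean over probe sets 1 member was called lower, MORF4L2, whose difference turned from 0.0046 to -0.75 (adjusted p = 0.042; 0.042 to 0.99 over its alternatives). This alternative averages in its 2 dimmer probe sets. In the fit over probe sets, the 1 member probe set that was called lower became 0 with no filter on dim probe sets, 0 without the intensity trend, and 0 to 0 when 1 array was left out. It was called with a pseudocount of 16, quantile normalization and cyclic loess (adjusted p = 0.026 to 0.037). All settings of the probe set fit but the filter were chosen after seeing the data.

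With the letters a and b as a replicate block, 0 members were called, 3 of 83 member probe sets were called lower (2 of MORF4L2 and 1 of HDAC9; 3.61%, against 1.22% of all probe sets), 2 genes of the partner lists were called higher (INO80C, and ING3 at 0.58, adjusted p = 0.040) and 1 lower (OGT). The letters mark no shared culture in the labels, and deviations of same-letter arrays correlated at r = 0.029 across genes. Whether arrays of the same letter share an effect on single genes was not tested. When 1 array was left out, the log2 difference of ING3 was 0.51 to 0.65, and the partner lists had 0 to 1 genes called higher and 0 to 1 called lower.

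Over all tested genes, 125 calls up and 58 down became 0 and 0 without the trend, 42 and 12 without the filter, 79 and 36 after quantile normalization, 90 and 36 after cyclic loess, 26 and 11 with the mean over probe sets, 83 and 45 with the brightest probe set not of the _x_at or _s_at kind, 263 and 179 with the replicate block, and 2 and 0 without control array a or b. The cause was not tested. Under the stricter filter on dim genes 39 members were tested. The dim members HDAC7, HDAC10 and HDAC11 had the widest intervals on their brightest probe sets, and the part of background signal in this was not tested. For HDAC11, whose duplicates were 0.041 and 0.040 apart, the SE was 0.18 with the intensity trend and 0.074 without it.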
